A study of Mus musculus with 16 samples.

Results

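The interferon-inducible genes Irgm1, Parp12, Igtp, Irf1, Bst2, B2m, Ifitm1 and Ifitm3, were followed through endoderm and mesoderm differentiation of mouse embryonic stem cells (mESCs). They had been picked as genes with high levels in mesoderm on these same arrays, so that their levels and differences are given here as a description, with the SE of the model but without a test or a call. Of the 8 genes listed, 7 had a probe set of their own among the 18716 genes that could be named. The only probe set of Igtp, an immunity-related GTPase, also belongs to Irgm2, and Igtp was therefore not read.

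Affymetrix Mouse Gene ST 1.0 arrays were used, and each value is the log2 intensity of a probe set after robust multichip average (RMA) normalization. The 16 arrays fall into 8 groups of 2 biological replicates. All cells carried 1 GFP reporter allele of T and 1 tagRFP reporter allele of Foxa2 (TGFP/+; Foxa2tagRFP/+) on the 129/Ola background, as the labels give it, which name the parental line E14.1, whereas the study's methods name G4 mESCs. mESCs were kept on fibroblast feeders with LIF and were not sorted. Differentiation was done on feeders that express Wnt3a. Foxa2-positive, T-negative cells were sorted from endoderm cultures with 12 ng/ml activin A as CD24 low or CD24 high cells on days 2 and 4 (F+CD24low D2, F+CD24high D2, F+CD24low D4 and F+CD24high D4). T-positive, Foxa2-negative cells were sorted from mesoderm cultures, to which activin A at 3 ng/ml and Bmp4 at 7.5 ng/ml had been added, as CD24 low cells on days 2 and 4 (T+CD24low D2 and T+CD24low D4) and as CD24 negative cells on day 4 (T+CD24neg D4). The lineage and the medium cannot be told apart. In bulk RNA, fewer cells that express a gene and less RNA per cell cannot be told apart either.

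Interferons are secreted proteins that bind cell surface receptors. The receptors act through Janus kinases on Stat proteins, which bind DNA alone at gamma-activated sites (GAS) or together with Irf9 at interferon-stimulated response elements (ISRE). The genes induced this way block viruses, destroy vacuoles that hold pathogens and load peptides onto major histocompatibility complex (MHC) class I. Pluripotent cells are known to answer interferons weakly and to keep a set of these genes, Ifitm genes among them, on without infection.

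Both elements were searched in the RefSeq promoters of the 8 genes (GRCm38.p6), since all are known interferon targets and several moved together. The letters searched, on both strands in the 250 bases before the start, were GAAANNGAA for ISRE and TTCNNNGAA for GAS. Over all 32851 promoters, 7.13% held the former and 7.02% the latter, and in 40 promoters the 2 motifs overlapped. ISRE letters were found in 4 of the 8 genes (Irgm1, Igtp, Bst2 and B2m) and GAS letters in 3 (Irf1, Igtp and Bst2). The windows are shown to compare genes that were high in mesoderm with genes that were not. They run 5′ to 3′ along the gene, with the matched letters in capitals.
Irgm1: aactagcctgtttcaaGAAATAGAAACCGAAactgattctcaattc
Irf1: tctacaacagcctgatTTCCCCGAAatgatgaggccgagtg
Bst2: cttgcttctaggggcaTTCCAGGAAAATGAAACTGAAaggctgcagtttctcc
B2m: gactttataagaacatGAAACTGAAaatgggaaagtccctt
Igtp: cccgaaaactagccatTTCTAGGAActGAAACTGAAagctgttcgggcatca
Ifitm3: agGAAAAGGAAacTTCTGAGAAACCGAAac

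The Irgm1 window lies at chr11:48871421-48871466 on the minus strand and holds 2 overlapping ISRE matches. The Irf1 window lies at chr11:53769908-53769948 on the plus strand, upstream of the first of 2 starts, and holds a GAS match. The Bst2 window lies at chr8:71537572-71537624 on the minus strand and holds a GAS match that runs into 2 ISRE matches. The B2m window is at chr2:122147532-122147572 on the plus strand and the Igtp window at chr11:58199495-58199546 on the plus strand. The Ifitm3 window, at chr7:141010715-141010744 on the minus strand, lies downstream of the start, in the 50 bases after it. It holds 2 ISRE matches and 1 GAS match. With those 50 bases added to the search, 8.56% of all promoters held ISRE letters and 8.3% GAS letters. Parp12, Ifitm1 and the second start of Irf1 held neither set of letters before the start, and nor did Ifitm3. Of the measured genes with ISRE letters before the start, Irgm1 was higher in mesoderm and Bst2 and B2m, as their values show, were not. Whether the letters bear on these levels was not tested. A match to these letters is not evidence that a factor binds.

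In 5 of the 7 genes every one of the 6 T+ arrays lay above every one of the 8 F+ arrays, which was the case for 2.43% of all named genes. These were Irf1, Irgm1, Parp12, Ifitm1 and Ifitm3. The label of a mesoderm group held for them but not for Bst2 and B2m, whose T+ and F+ arrays overlapped. No gene of the 7 had all T+ arrays below all F+ arrays (2.51% of all named genes). The members were picked as high in mesoderm on these arrays, which favours both results. The shares of all genes are given for scale and are no test.

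**Figure D1:**
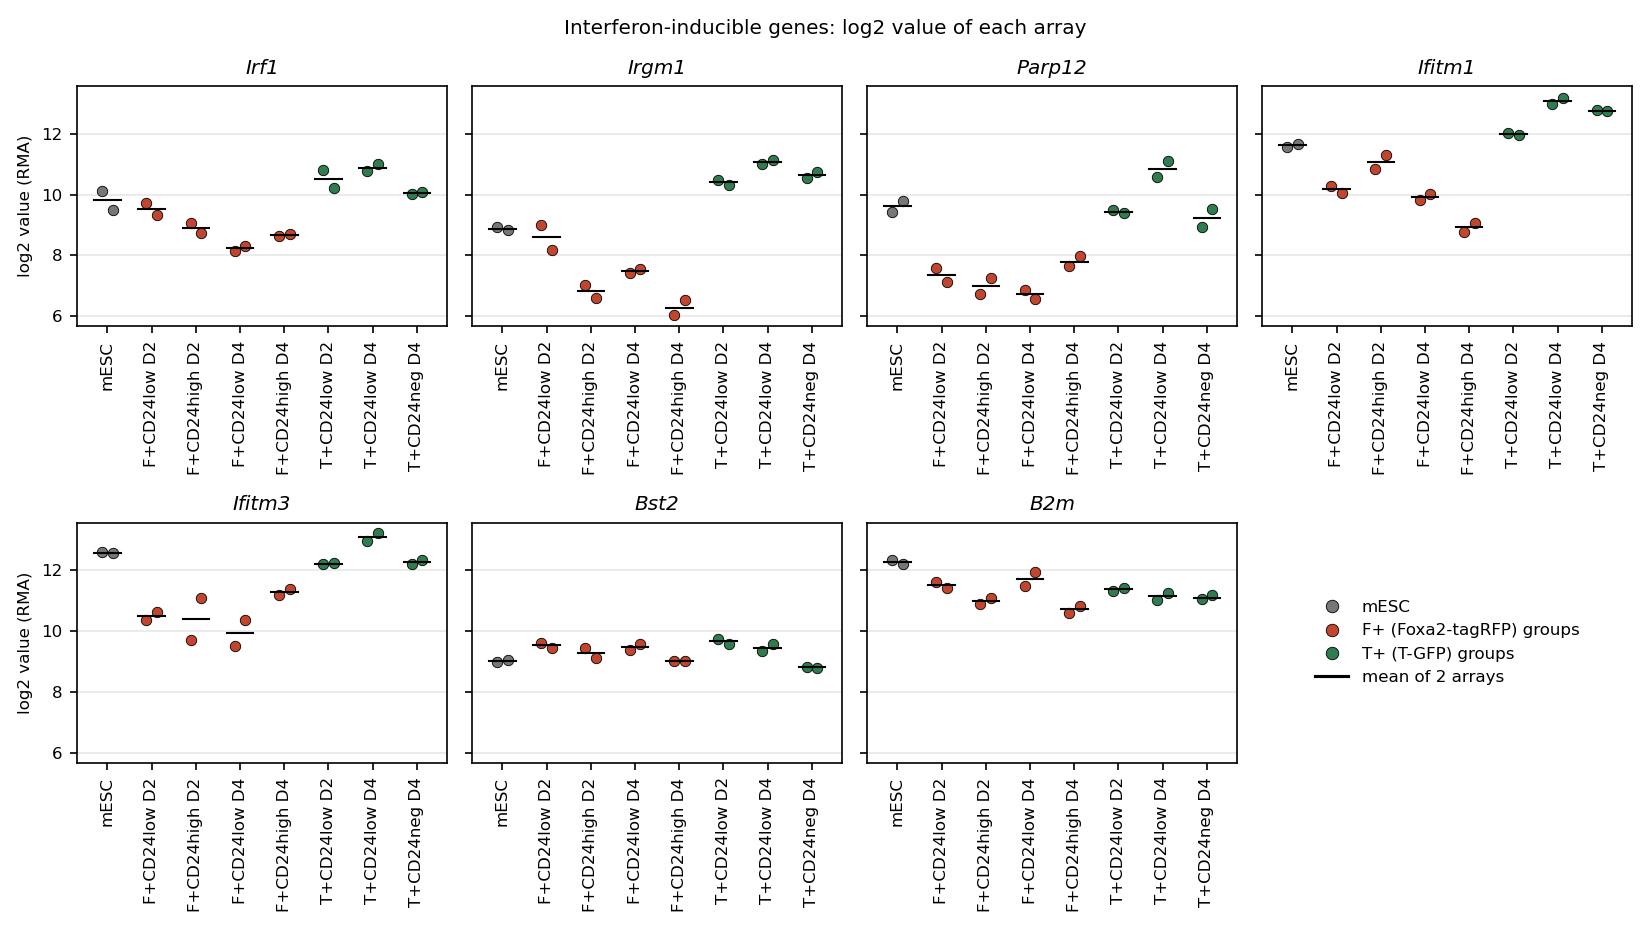
Each panel plots 1 interferon-inducible gene, with the 8 groups on the x axis and the RMA log2 value on the y axis. Points are arrays, coloured by reporter, and bars are the mean of 2 arrays. The green T+ points lie above all red F+ points for Irf1, Irgm1, Parp12, Ifitm1 and Ifitm3 and overlap them for Bst2 and B2m.

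Irf1 is a transcription factor that is itself induced by interferon gamma and in turn activates MHC class I and antiviral genes. Its log2 values were 10.81 and 10.23 in T+CD24low D2, 10.78 and 10.99 in T+CD24low D4, and 10.01 and 10.07 in T+CD24neg D4. In the F+ groups the values were 9.71 and 9.32 in F+CD24low D2, 9.06 and 8.75 in F+CD24high D2, 8.15 and 8.31 in F+CD24low D4, and 8.64 and 8.72 in F+CD24high D4. Of the mESC arrays, at 10.13 and 9.49, the first lay among the T+ and the second among the F+ values. F+CD24low cells had less Irf1 on day 4 than on day 2, while the 2 days of the T+CD24low cells overlapped. The T+ minus F+ difference was 1.00 (SE 0.23) in CD24 low cells on day 2 and 2.65 (SE 0.23) on day 4, and 1.36 (SE 0.23) between T+CD24neg and F+CD24high cells on day 4. A second, dimmer Irf1 probe set with a mean of 7.48, against 9.57 for the first, gave differences of only 0.11, 0.31 and 0.12 in the same comparisons. The 2 probe sets correlated at r = 0.58 over the 16 arrays, and the size of the Irf1 difference therefore depends on which is read.

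Irgm1, a GTPase that acts at membranes in defence against intracellular bacteria and in autophagy, had the widest gap between the lineages. Its T+ arrays ran from 10.32 over a median of 10.63 to 11.13, and its F+ arrays from 6.03 over 7.22 to 8.99. Among the F+ cells it was highest in F+CD24low D2 (8.99 and 8.19) and lowest in F+CD24high D4 (6.03 and 6.52). On both days the CD24 high arrays lay below the CD24 low arrays of the same day. The T+ groups differed little, with 10.48 and 10.32 in T+CD24low D2, 11.01 and 11.13 in T+CD24low D4, and 10.53 and 10.73 in T+CD24neg D4. The mESC arrays, at 8.94 and 8.83, overlapped F+CD24low D2 and lay below all T+ arrays. The difference was 1.81 (SE 0.24) in CD24 low cells on day 2, 3.58 (SE 0.24) on day 4, and 4.36 (SE 0.24) between T+CD24neg D4 and F+CD24high D4. With the 2 F+CD24low D2 arrays this far apart, the day 2 value was 2.21 without the first and 1.41 without the second.

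Parp12, a mono-ADP-ribosyltransferase with antiviral activity, had its highest level in T+CD24low D4. Its log2 values were 10.57 and 11.12 there, 9.49 and 9.39 in T+CD24low D2, and 8.94 and 9.54 in T+CD24neg D4. The F+ arrays ran from 6.58 over a median of 7.20 to 7.97, and the highest were those of F+CD24high D4 at 7.64 and 7.97. The mESC arrays, at 9.44 and 9.78, overlapped T+CD24low D2 and lay well above every F+ array. The difference was 2.08 (SE 0.26) in CD24 low cells on day 2, 4.12 (SE 0.26) on day 4 and 1.43 (SE 0.26) between T+CD24neg D4 and F+CD24high D4. Parp12 was also the member with the largest difference between the day 4 mesoderm gates, -1.61 (SE 0.26) in T+CD24neg against T+CD24low cells.

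Ifitm1 and Ifitm3 encode small membrane proteins that keep viruses from fusing with the cell, and both are also known from nascent germ cells of the embryo. Ifitm1 had log2 values of 12.01 and 11.97 in T+CD24low D2, 12.97 and 13.17 in T+CD24low D4, and 12.77 and 12.74 in T+CD24neg D4. Its F+ arrays ran from 8.76 over a median of 10.05 to 11.29, with the top in F+CD24high D2 (10.84 and 11.29) and the bottom in F+CD24high D4 (8.76 and 9.08). Within the CD24 high endoderm cells Ifitm1 was therefore clearly lower on day 4 than on day 2, with no overlap. The T+ minus F+ difference was 1.82 (SE 0.16) in CD24 low cells on day 2, 3.14 (SE 0.16) on day 4 and 3.83 (SE 0.16) between T+CD24neg D4 and F+CD24high D4. A second Ifitm1 probe set gave 1.96, 3.52 and 4.55.

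Ifitm3 was highest in T+CD24low D4, like Ifitm1. Its values were 12.19 and 12.24 in T+CD24low D2, 12.95 and 13.21 in T+CD24low D4, and 12.21 and 12.34 in T+CD24neg D4. The F+ arrays ran from 9.52 over a median of 10.51 to 11.38, with the most uneven pair in F+CD24high D2 (9.72 and 11.08). In contrast to Ifitm1, its highest F+ arrays were those of F+CD24high D4 (11.17 and 11.38). The difference was 1.71 (SE 0.35) in CD24 low cells on day 2, 3.14 (SE 0.35) on day 4, and 1.00 (SE 0.35) between T+CD24neg D4 and F+CD24high D4. The mESC arrays, at 12.60 and 12.56, were second only to T+CD24low D4 for Ifitm3, and those of Ifitm1, at 11.58 and 11.67, lay between the lineages.

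Bst2 (tetherin) holds budding virus particles at the cell surface, and it showed no separation of the lineages. Its T+ arrays ran from 8.79 over a median of 9.46 to 9.75 and its F+ arrays from 9.01 over 9.42 to 9.62. In both lineages the lowest sorted arrays were of day 4, T+CD24neg D4 at 8.83 and 8.79 and F+CD24high D4 at 9.03 and 9.01. The T+ minus F+ differences were 0.12 (SE 0.13), -0.02 (SE 0.13) and -0.21 (SE 0.13) in the order given above. All 7 genes but Bst2 spanned more than 1 log2 unit over the arrays.

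B2m, the light chain of MHC class I molecules, was highest in mESCs, at 12.35 and 12.21. Its T+ arrays ran from 11.03 over a median of 11.22 to 11.42 and lay within the range of the F+ arrays, 10.60 over 11.25 to 11.94. Among the F+ cells the CD24 low arrays (11.62 and 11.40 on day 2, 11.47 and 11.94 on day 4) lay above the CD24 high arrays (10.90 and 11.10, and 10.60 and 10.81). The differences were -0.14 (SE 0.16) and -0.56 (SE 0.16) in CD24 low cells on days 2 and 4 and 0.40 (SE 0.16) between T+CD24neg D4 and F+CD24high D4, so that their sign depended on the gates compared. The day 4 value was -0.79 without the first F+CD24low D4 array and -0.32 without the second.

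**Figure D2:**
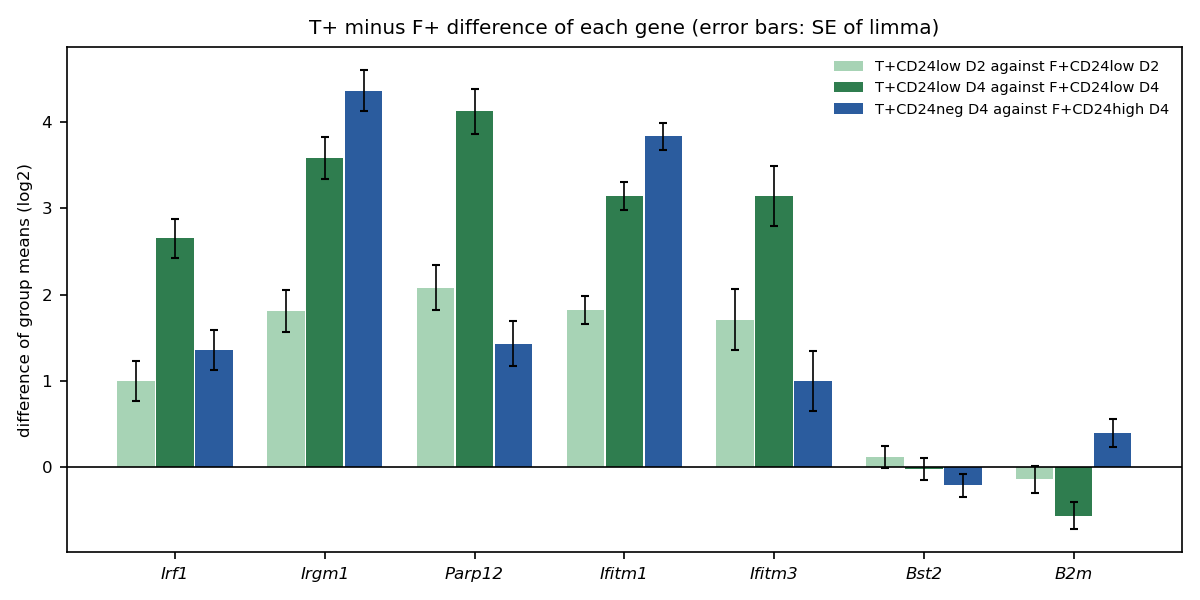
Bars show, for each of the 7 genes on the x axis, the T+ minus F+ difference of group means on the log2 scale in 3 comparisons, with 2 arrays per group and the SE of the limma model as error bars. Differences on day 4 in CD24 low cells exceed those on day 2 for Irf1, Irgm1, Parp12, Ifitm1 and Ifitm3, while Bst2 and B2m stay between -0.56 and 0.40.

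The 5 genes high in mesoderm were picked on these same arrays, which favours high correlations between them, given here as a description. Over the 16 arrays the correlation between 2 of them ranged from 0.72 (Irgm1 with Ifitm3) to 0.95 (Parp12 with Ifitm3), and Irgm1 was closest to Irf1 (0.90) and Ifitm1 to Irgm1 (0.88). Bst2 correlated between -0.25 and 0.17 with the other members, most with Irf1, and B2m between 0.07 and 0.17, most with Irgm1. Over the 14 sorted arrays alone Bst2 and B2m correlated at 0.60, against 0.13 over all 16. The points share the group structure, and the 2 arrays of a group are not independent of it.

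The genes most like the members were found by their correlation with the members' mean value over the 16 arrays, among 3779 other genes whose group means spanned more than 1. The 10 closest were Psme2 (r = 0.962), Psmb10 (0.959), Ccnd2 (0.956), Oasl2 (0.947), Crabp2 (0.942), Erap1 (0.941), Nmi (0.935), Anpep (0.934), Parp14 (0.921) and Dysf (0.918). Of these 10 genes 6 belong to the lists of interferon pathway genes (Psme2, Psmb10, Oasl2, Erap1, Nmi and Parp14). Of all 18716 named genes 140 are in these lists, and their share among the 3779 was not counted. The ranking rests on members chosen on the same arrays, so the 6 are a description. Ccnd2 encodes a D-type cyclin, Crabp2 a retinoic acid binding protein, Anpep a surface aminopeptidase and Dysf a membrane repair protein. The choice of measure matters, since 3 of the 10 were also among the closest by rank correlation, 9 with the 8 group means and 5 with the 14 sorted arrays alone.

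To see how far other interferon genes had the same pattern, 162 genes in 11 lists were examined, none of them a member. The lists were chosen with earlier results of these data known, so their counts are no independent check. Values could be read for 140, 15 lie only on probe sets shared with other genes (Isg15, H2-K1 and H2-D1 among them), 2 fell below the filter on low values, and 5 were not analysed here. Called genes had a log2 difference beyond 1 in either direction, a 2-fold change, and an adjusted p below 0.05 (limma, Benjamini-Hochberg over 32000 probe sets). Every T+ array lay above every F+ array for 22 of the 140 genes, 15.7% against 2.43% of all named genes, and for 0 of them the reverse held.

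In CD24 low cells on day 2, 4 of the 140 pathway genes were higher in T+ than in F+ cells and 0 were lower, against 0.54% and 0.647% of all genes. Those 4 were Usp18, a protease that removes Isg15 and dampens receptor signalling (1.46, SE 0.30), Erap1, which trims peptides for class I (1.27, SE 0.16), Parp14 (1.07, SE 0.24) and the immunoproteasome subunit Psmb8 (1.05, SE 0.14). The median difference of the 140 was 0.06, against -0.01 for all genes. The median difference of the 7 members was 1.71, but they were chosen on these values. Without the first T+CD24low D2 array 1 pathway gene was called.

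On day 4 the same comparison of CD24 low cells gave 26 pathway genes higher and 1 lower in T+ cells, against 1.78% and 1.77% of all genes. The median difference was 0.17, against 0.00 for all genes. The median of the members was 3.14. All 4 genes that were higher on day 2 were among the 26 on day 4. The 2 days share no arrays, but the model pools the spread of all 16 arrays. How often such an overlap held over all genes was not counted. In 23 of the 26 genes T+CD24low D4 had the highest mean of all 8 groups, which their choice by this comparison favours.

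**Figure D3:**
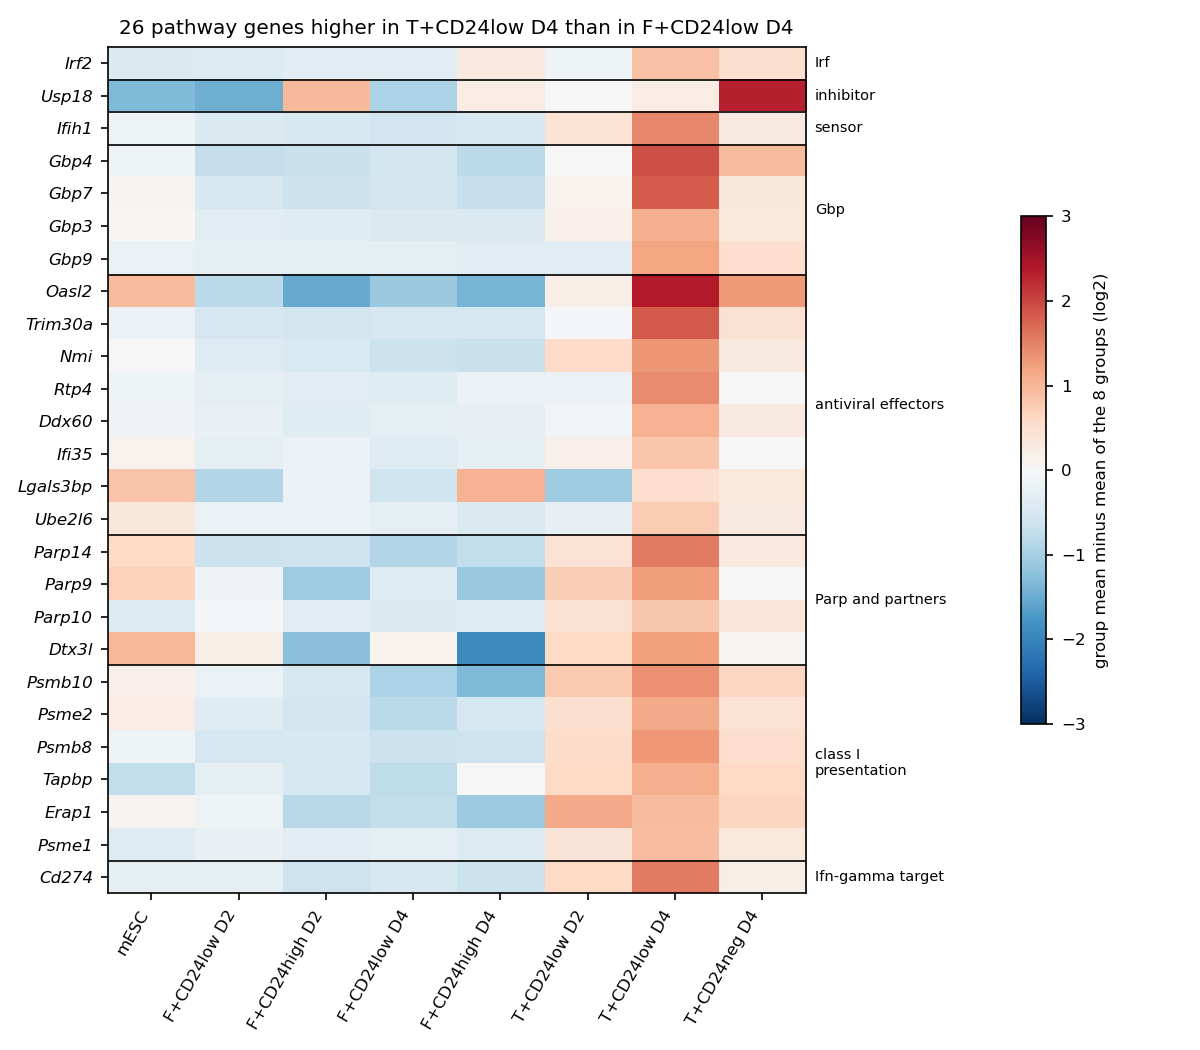
Rows are the 26 pathway genes that were higher in T+CD24low D4 than in F+CD24low D4, ordered by role, and columns are the 8 groups. Colour gives the group mean minus the mean of the 8 groups on the log2 scale. The T+CD24low D4 column is red throughout and is the highest of the 8 in 23 of the 26 rows. Among the others, Usp18 peaks in T+CD24neg D4 and Erap1 in T+CD24low D2.

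By role, the upstream part of the pathway had few calls. None of the 14 interferon ligands that could be read was called in CD24 low cells on day 2 or day 4 with limma, where 0 and 1 of them had an unadjusted p under 0.05, and the group means of no ligand spanned more than 0.57 over the 8 groups. Ifnb1, the first interferon made on infection in most cells, had group means from 5.35 to 5.62, under the array medians of 7.42 to 7.49. Of the 11 receptor, Jak and Stat genes, 0 were called in CD24 low cells on either day, with 1 on day 2 and 6 on day 4 at an unadjusted p under 0.05 by limma. On day 4 the T+ minus F+ differences were 0.36 for Ifnar1 and 0.35 for Ifnar2, the 2 chains of the type I receptor, -0.63 (SE 0.11) for Ifngr1 and 0.71 (SE 0.11) for Ifngr2, the chains of the interferon gamma receptor, -0.02 for Ifnlr1 and 0.05 for Il10rb, the chains of the lambda receptor, 0.68 (SE 0.22) for Jak1, 0.57 for Jak2, 0.20 for Tyk2, 0.59 (SE 0.11) for Stat2 and 0.25 for Irf9. The adjusted p was below 0.05 by limma with a difference under the fold threshold for Ifngr1 (0.00356), Ifngr2 (0.00139) and Stat2 (0.00538). The 11 genes thus moved by less than 1 in either direction, and the 2 gamma receptor chains moved in opposite directions.

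Among the regulators, Irf2, which binds the same sites as Irf1 and can repress them, was the 1 of 8 other Irf genes higher in T+CD24low D4 (1.21, SE 0.18). Of the 9 inhibitors of signalling only Usp18 was called (1.18, SE 0.30). Ifih1, a sensor of double-stranded RNA, was the 1 of 12 sensors and adaptors called (2.02, SE 0.12).

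The effectors held most of the calls. Of 8 GTPases of the Irg and Gbp families, relatives of Irgm1 that attack pathogen vacuoles, 4 were higher on day 4: Gbp4 (2.48, SE 0.18), Gbp7 (2.38, SE 0.17), Gbp3 (1.51, SE 0.13) and Gbp9 (1.44, SE 0.11), with a list median of 1.05. Of 37 antiviral effectors 8 were higher, led by Oasl2, an oligoadenylate synthetase-like protein (3.49, SE 0.16), Trim30a (2.36, SE 0.18), Nmi (1.98, SE 0.17) and Rtp4 (1.78, SE 0.13). Oasl2 had log2 values of 10.74 and 10.88 in T+CD24low D4, 8.62 and 8.66 in T+CD24low D2, and 7.27 and 7.37 in F+CD24low D4. Ifit1, a classical interferon-stimulated gene, had a difference of 0.85 (SE 0.12) and was not called. Of 7 genes related to Parp12 or acting with it, 4 were higher: Parp14 (2.44, SE 0.24), Parp9 (1.63, SE 0.14), Parp10 (1.24, SE 0.15) and Dtx3l, the ubiquitin ligase partner of Parp9 (1.13, SE 0.13). In contrast, 0 of the 5 other Ifitm genes were called by limma, with 2 at an unadjusted p under 0.05 and a list median of 0.06. Ifitm2, which lies in the same gene cluster as Ifitm1 and Ifitm3, had group means from 12.57 to 13.17 in all 8 groups.

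B2m acts in class I antigen presentation. Of 16 other genes of that pathway 6 were higher in T+CD24low D4 and 0 were lower, with a list median of 0.57. They were the immunoproteasome subunits Psmb10 (2.30, SE 0.18) and Psmb8 (1.95, SE 0.14), the proteasome activator subunits Psme2 (1.95, SE 0.14) and Psme1 (1.21, SE 0.10), the peptide loading protein Tapbp (1.85, SE 0.17) and Erap1 (1.69, SE 0.16). Tap1, a subunit of the peptide transporter, had a difference of 0.47 (SE 0.12) and Nlrc5, the activator of class I genes, of 0.06 (SE 0.14). Of 13 other interferon gamma targets Cd274, the ligand of the PD-1 receptor, was higher (2.03, SE 0.22) and H2-Ab1, an MHC class II chain, was lower (-1.29, SE 0.21).

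Between the most differentiated cells, T+CD24neg D4 and F+CD24high D4, which also differ in the CD24 gate, 13 pathway genes were higher and 4 lower in T+ cells, against 3.61% and 4.26% of all genes. The median difference was 0.08, against -0.02 for all genes. The median of the members was 1.36. Oasl2 (2.67, SE 0.16), Tor3a (2.14, SE 0.14), Usp18 (2.11, SE 0.30), Psmb10 (1.95, SE 0.18) and Dtx3l (1.94, SE 0.13) had the largest differences. The 4 lower genes were the receptor chains Ifnlr1 (-1.42, SE 0.12) and Il10rb (-1.15, SE 0.16) and the antiviral genes Apobec3 (-1.21, SE 0.13) and Zc3hav1 (-1.08, SE 0.11). Of the 13 genes higher here 10 were also among the 26 higher in the CD24 low cells of day 4, a comparison with other arrays. The same overlap over all genes was not counted.

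Within mesoderm, the days and the CD24 gates were compared. From day 2 to day 4 of the T+CD24low cells 12 pathway genes rose and 0 fell, against 1.22% and 0.513% of all genes. Oasl2 rose by 2.17 (SE 0.16), Gbp4 by 1.93 (SE 0.18), Trim30a by 1.88 (SE 0.18), Gbp7 by 1.72 (SE 0.17) and Irf2 by 1.00 (SE 0.18). Among the members the difference between the days ran from -0.22 (SE 0.16) for B2m to 1.40 (SE 0.26) for Parp12. On day 4, T+CD24neg cells had 1 pathway gene higher and 11 lower than T+CD24low cells, against 0.369% and 0.807% of all genes. Gbp7 (-1.48, SE 0.17), Trim30a (-1.40, SE 0.18), Rtp4 and Cd274 (both -1.39) were the lowest, and the members ran from -1.61 (SE 0.26) for Parp12 to -0.04 (SE 0.16) for B2m. Usp18 was the exception and was higher in T+CD24neg cells by 2.09 (SE 0.30). Its log2 values were 10.84 and 10.88 there, 8.68 and 8.86 in T+CD24low D4, and 8.97 and 10.04 in F+CD24high D2. These comparisons share the T+CD24low D4 arrays with each other and with the day 4 comparison of the CD24 low cells.

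Whether the T+ minus F+ difference of the CD24 low cells changed from day 2 to day 4 was tested as an interaction in the same limma model. It grew for 13 pathway genes and shrank for 0, against 0.908% and 0.657% of all genes. The growth was 2.51 (SE 0.22) for Oasl2, 1.89 (SE 0.25) for Trim30a, 1.81 (SE 0.24) for Gbp7, 1.76 (SE 0.25) for Gbp4 and 1.31 (SE 0.26) for Psmb10. For the members the same quantity is a description. It was 2.04 (SE 0.37) for Parp12, 1.77 (SE 0.34) for Irgm1, 1.65 (SE 0.32) for Irf1, 1.43 (SE 0.50) for Ifitm3, 1.32 (SE 0.22) for Ifitm1, -0.14 (SE 0.18) for Bst2 and -0.41 (SE 0.22) for B2m. The Ifitm3 value was 1.02 and 1.85 without the first and the second F+CD24low D4 array, and that of B2m -0.65 and -0.18. Irgm1, Parp12, Ifitm1 and Ifitm3 were higher on day 4 than on day 2 in both T+CD24low arrays and lower in both F+CD24low arrays. The days did not overlap in either lineage. In F+CD24low cells they nearly touched for Ifitm1 (10.28 and 10.06, then 9.83 and 10.03) and Ifitm3 (10.38 and 10.64, then 9.52 and 10.35). The share of all genes with this pattern was not counted. The 13 genes are drawn from arrays that also enter the comparisons of single days.

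The comparisons with mESCs share the same 2 control arrays. In T+CD24low D2, 4 of the 140 pathway genes (2.9%) were higher and 9 (6.4%) lower, against 1.36% and 3.58% of all genes. In T+CD24neg D4, 4 (2.9%) were higher and 7 (5.0%) lower, close to the 2.59% and 4.5% of all genes. Without the fold threshold, 20 were higher and 18 lower in T+CD24low D2, and 28 higher and 21 lower in T+CD24neg D4. The shares of all genes under that rule were not counted. The member differences ran from -0.92 (SE 0.16) for B2m to 1.52 (SE 0.24) for Irgm1 in T+CD24low D2 and from -1.18 (SE 0.16) for B2m to 1.75 (SE 0.24) for Irgm1 in T+CD24neg D4. Trim25, which activates an RNA sensor, was lower than in mESCs by -2.19 (SE 0.14) in T+CD24low D2 and -2.05 (SE 0.14) in T+CD24neg D4, and Sting1, the adaptor of DNA sensing, by -1.95 (SE 0.13) and -1.65 (SE 0.13). Beside these values, 18 of 21 fibroblast markers were lower in T+CD24low D2 than in mESCs and 14 of 21 in T+CD24neg D4, with medians of -2.00 and -1.68, and the part of feeder RNA was not tested.

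Markers of these and other cells were read on the same arrays. The mean log2 level of 8 mesoderm markers was 8.67 to 10.69 on the T+ arrays and 7.23 to 7.79 on the F+ arrays, and unlike the members it was highest in T+CD24neg D4. The mean of 8 definitive endoderm markers was 8.48 to 11.83 on the F+ arrays and 7.69 to 8.59 on the T+ arrays, with T+CD24neg D4 overlapping F+CD24low D2. Between T+CD24neg D4 and F+CD24high D4, 4 of 8 pluripotency markers were higher (median 0.86) and 4 of 9 visceral endoderm markers lower (median -1.85). Of all genes 3.61% were higher and 4.26% lower. The part of these markers in the pathway differences was not tested. In CD24 low cells on day 4 those counts were 0 of 8 by limma and 1 of 9. Fibroblast genes were high on the mESC arrays, where the mean of 21 genes was 9.90 and 9.50 against 7.18 to 7.69 on the sorted arrays. Postn, for instance, had a mean of 10.27 in mESCs and of 5.18 to 5.30 in the sorted groups, and Dcn of 10.99 and of 6.05 to 6.33. The high mESC levels of Ifitm3, Ifitm1, Parp12 and B2m stand beside these values, and here too the part of feeder cells was not tested. Between T+CD24low D4 and F+CD24low D4, 3 of the 21 fibroblast genes (14.3%) were higher (Pdgfrb, Acta2 and Fbln2) and 1 (4.8%) was lower (Thbs2). By limma 2 of 12 endothelial and blood markers (16.7%) and 0 of 10 leukocyte markers were higher. Of all genes 1.78% were higher and 1.77% lower, and of the 140 pathway genes 18.6% and 0.7%. No leukocyte marker had an unadjusted p under 0.05 in that comparison. The mean of 10 leukocyte markers was 6.26 to 6.44 on the sorted arrays, below the array medians, and Ptprc had group means of 5.87 to 6.10 there.

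Germ cell markers and the members were both highest in T+CD24low D4 among the mesoderm groups. The mean of 7 such genes was 8.89 and 8.99 in T+CD24low D4, 7.85 and 7.96 in T+CD24low D2, 7.55 and 7.57 in T+CD24neg D4, and 7.48 and 7.43 in F+CD24low D4. Tfap2c (2.87), Prdm14 (2.20), Prdm1 (2.15) and Kit (1.20) were higher in T+CD24low D4 than in F+CD24low D4. The same 4 were lower in T+CD24neg D4 than in T+CD24low D4. That is 57.1% of the list each time, against 1.78% of all genes higher in the former comparison and 0.807% lower in the latter. Dppa3 had its highest sorted level, 6.80, in T+CD24low D4 and stayed below the array medians. In F+CD24high cells the germ cell list was at 8.10 to 8.28 through Kit and Prdm1, while the members were low. The part of such cells in the T+CD24low D4 levels was not tested.

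**Figure D4:**
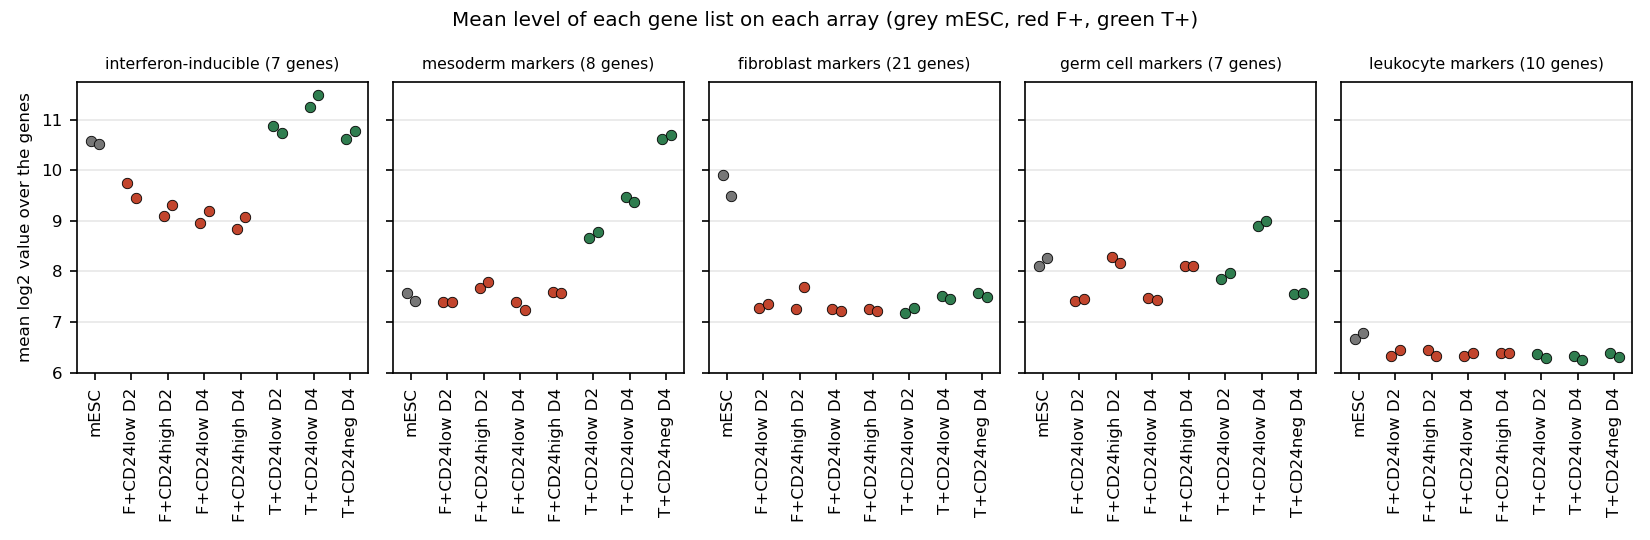
Each panel plots, for 1 gene list, the mean log2 value over its genes on each array (points) for the 8 groups on the x axis. The fibroblast list is high only on the 2 mESC arrays, the mesoderm list is highest in T+CD24neg D4, and the germ cell list, like the members, is highest in T+CD24low D4.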

How the data were processed

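The scanner files of all 16 arrays were normalized together by the authors with RMA (oligo 1.48.0), and the deposited table holds a log2 value for each of 35556 probe sets. Since RMA equalizes the distribution of the arrays, a difference in total RNA is not visible, and differences of dim genes are compressed. Array medians were 7.42 to 7.49, and replicates correlated at 0.989 to 0.995. The number of arrays, 2 per group, limits the precision. From the deposited values, limma 3.58.1 (R 4.3.3) was run on the 32000 probe sets with the highest mean, with the 8 groups as the only term, so that each SE pools the spread of all replicate pairs. Genes were read from their brightest single-symbol probe set. The sources used here name no build for the probe sets. The fit was tested on simulated data. The members and gene lists were chosen with earlier results of these data known. Named were all members, up to 4 called genes per list and comparison by size, the receptors, Jaks, Stat2, Irf9, Ifnb1, Ifit1, Tap1, Psmb8 and Nlrc5, and the 10 genes closest to the members. Other genes, such as Ifitm2, Dppa3, Postn, Dcn and Ptprc, were named after their values were seen. Alternatives were another filter, call rule, moderation, probe set rule, set of arrays and normalization, the replicate block and leaving out single arrays.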

Additional observations from a re-analysis of the deposited data

Results flagged for a closer look

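The change from day 2 to day 4 differed between T+CD24low and F+CD24low cells for 13 pathway genes in the interaction test of limma. The T+ minus F+ difference grew by 2.51 for Oasl2, 1.89 for Trim30a, 1.81 for Gbp7, 1.76 for Gbp4, 1.66 for Rtp4, 1.47 for Gbp9, 1.31 for Psmb10, 1.28 for Lgals3bp, 1.20 for Ddx60, 1.18 for Ifih1, 1.12 for Ube2l6, 1.11 for Psme2 and 1.02 for Gbp3, each on the log2 scale.

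For 4 members both T+CD24low arrays were higher on day 4 than on day 2 while both F+CD24low arrays were lower. The difference between the 2 changes was 1.77 for Irgm1, 2.04 for Parp12, 1.32 for Ifitm1 and 1.43 for Ifitm3. No test of it is given, since these genes were chosen on the same values. The nearest F+CD24low arrays of the 2 days lay close for Ifitm1 (10.06 on day 2, 10.03 on day 4) and Ifitm3 (10.38 and 10.35). The share of all genes with this pattern was not counted.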

How the results depend on the processing

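Of the counts of pathway genes and medians of the members, 153 values under an alternative stayed within 1.5 times the count, or within the spread between replicates for a median, and 19 did not. No median that moved changed sign. Without the fold threshold more genes were called: 14 in CD24 low T+ against F+ cells on day 2, 49 on day 4, 50 in T+CD24neg against F+CD24high D4, 32 from day 2 to day 4 of T+CD24low, 28 in T+CD24neg against T+CD24low D4, and 38 (20 higher, 18 lower) and 49 (28 higher, 21 lower) in T+CD24low D2 and T+CD24neg D4 against mESCs, where most calls with the threshold were lower. With the 16000 brightest probe sets, 65 of the 140 genes were tested and 2, 11, 11, 2 and 5 were called in the first 5 of these comparisons, and 4 in the interaction. With the arrays of the groups compared alone, 2 were called in CD24 low cells on day 2. Leaving out 1 array at a time gave 1 to 5 genes there and a median of the members of 1.41 to 1.73, a median of 2.73 to 3.24 on day 4 and of 1.22 to 1.73 for the interaction. With the mean of all probe sets the members' median between T+CD24neg D4 and F+CD24high D4 was 1.00, and the Irf1 difference was 0.56 in CD24 low cells on day 2. Without the mESC arrays, an alternative chosen after seeing the data, 27 genes were called on day 4. Deviations of first replicates correlated at -0.204 to 0.246 over 28 pairs of groups, 8 of them above 0.1. These values do not settle whether the replicate numbers pair some of the arrays. With a replicate block 3 genes were called on day 2 and 27 on day 4.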
